A study of Mus musculus with 10 samples.

Results

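The genes described here are 10 members of the transforming growth factor beta (TGF-beta) system. They are the ligand genes Tgfb1, Tgfb2, Tgfb3 and Inhba, the receptor genes Tgfbr1, Tgfbr2 and Tgfbr3, and the latent TGF-beta binding protein genes Ltbp1, Ltbp2 and Ltbp3. Members were chosen by name, with earlier results of these data known, as the probe sets whose platform annotation gives one of these symbols. This gave 25 of the 45101 probe sets on the array, and the members are 10 of the 18193 genes that the array represents by a probe set of their own. The samples were distal colorectum, taken about 1 cm above the anus from C57BL/6J mice either unirradiated or 8 weeks after a local γ-ray dose of 25 Gy (2.14 Gy/min). The 4 groups were irradiated knockout (Pdgfc-/-, n = 3), irradiated wild type (Pdgfc+/+, n = 3), unirradiated knockout (Pdgfc-/-, n = 2) and unirradiated wild type (Pdgfc+/+, n = 2). Pdgfc encodes a secreted growth factor that acts on PDGF receptor alpha of mesenchymal cells. The comparisons ask how the genes differ with irradiation in each genotype, and whether they differ with loss of Pdgfc.

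TGF-beta is secreted as a latent complex. The mature ligand stays bound to its own propeptide, and latent TGF-beta binding proteins tether that complex to the extracellular matrix until integrins, proteases or mechanical force release it. The free ligand binds the type 2 receptor, which recruits and phosphorylates the type 1 receptor, and SMAD proteins then carry the signal to the nucleus. Activins are related ligands that use receptors of their own. In intestine the system is known for its effects on matrix production by fibroblasts, on epithelial growth and on immune regulation.

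Each value is the MAS5 signal of 1 array on the log2 scale, so a difference of 1 is a doubling. Array medians lay between 6.64 and 7.18. Signals of different probe sets are not compared with each other, since each probe set has its own brightness. The labels call the replicates biological, and precision is limited by how few arrays there are. Both probe sets of Pdgfc were lower in every knockout array than in every wild-type array of the same irradiation state. The labels give no sex. Transcripts of the sex chromosomes had a female pattern in 4 of 6 irradiated arrays (irradiated knockout replicate 1 and the 3 irradiated wild-type arrays) and a male pattern in the others, including the 4 unirradiated arrays. In wild type, irradiation and sex pattern therefore cannot be told apart. The genotype comparison after irradiation and the interaction also set arrays of unlike sex pattern against each other.

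Irradiated colorectum had higher signals of the activin A subunit gene Inhba, of the receptors Tgfbr2 and Tgfbr3, and of Ltbp3, in knockout and in wild type. Inhba rose 2.59-fold in knockout and 7.17-fold in wild type, and Tgfbr2 rose 2.04-fold in knockout and 1.99-fold in wild type. Ltbp1 and Ltbp2 passed the test in wild type and did not pass it in knockout. The probe sets of Tgfb1, the best known ligand, were too dim to test. No member differed by genotype past the threshold.

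The test was limma across 12568 genes, with an adjusted p below 0.05 as the threshold. The filter kept genes whose brightest probe set exceeded the array median on 2 or more arrays, as it did for 9 of the 10 members. Ltbp2 passed this filter only through irradiated arrays (4 of 6, against 0 of 4 unirradiated arrays), so its place among the genes tested is tied to its being high there. After irradiation, 4 of the 9 members tested rose and 0 fell in knockout, where 14.0% of all genes tested rose and 9.5% fell. In wild type, 6 of 9 rose and 0 fell, against 15.8% of all genes that rose and 8.34% that fell. With the effect averaged over genotypes, 7 of 9 rose and 0 fell, against 23.1% of all genes that rose and 16.0% that fell. The median log2 difference of the members tested was 0.91 in knockout and 0.99 in wild type, and that of all genes tested was 0.01 in knockout and 0.07 in wild type.

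The calls depended on single arrays. In knockout the count of 4 was 1 without irradiated replicate 1 or 3 or unirradiated replicate 1, 2 without unirradiated replicate 2 and 6 without irradiated replicate 2, when Tgfb2 and Ltbp1 also passed. In wild type the count of 6 was 3 without irradiated replicate 2 or 3 or either unirradiated array, each time with Inhba, Tgfbr2 and Ltbp2 still past the threshold, and 4 without irradiated replicate 1. With the sex pattern as a covariate the count was 1 in knockout (Tgfbr2), 0 in wild type and 2 for the average (Inhba and Tgfbr2). Only irradiated knockout held both patterns, with replicate 1 as its female-pattern array, so the covariate was estimated from that group alone. For members in knockout it gave the differences found without that replicate, as 1.26 for Inhba, so these are not separate checks. In wild type it applied the same estimate, which cannot separate sex pattern from irradiation there. That covariate left 16 of all genes past the threshold in wild type, against 3028 without it.

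**Figure D1:**
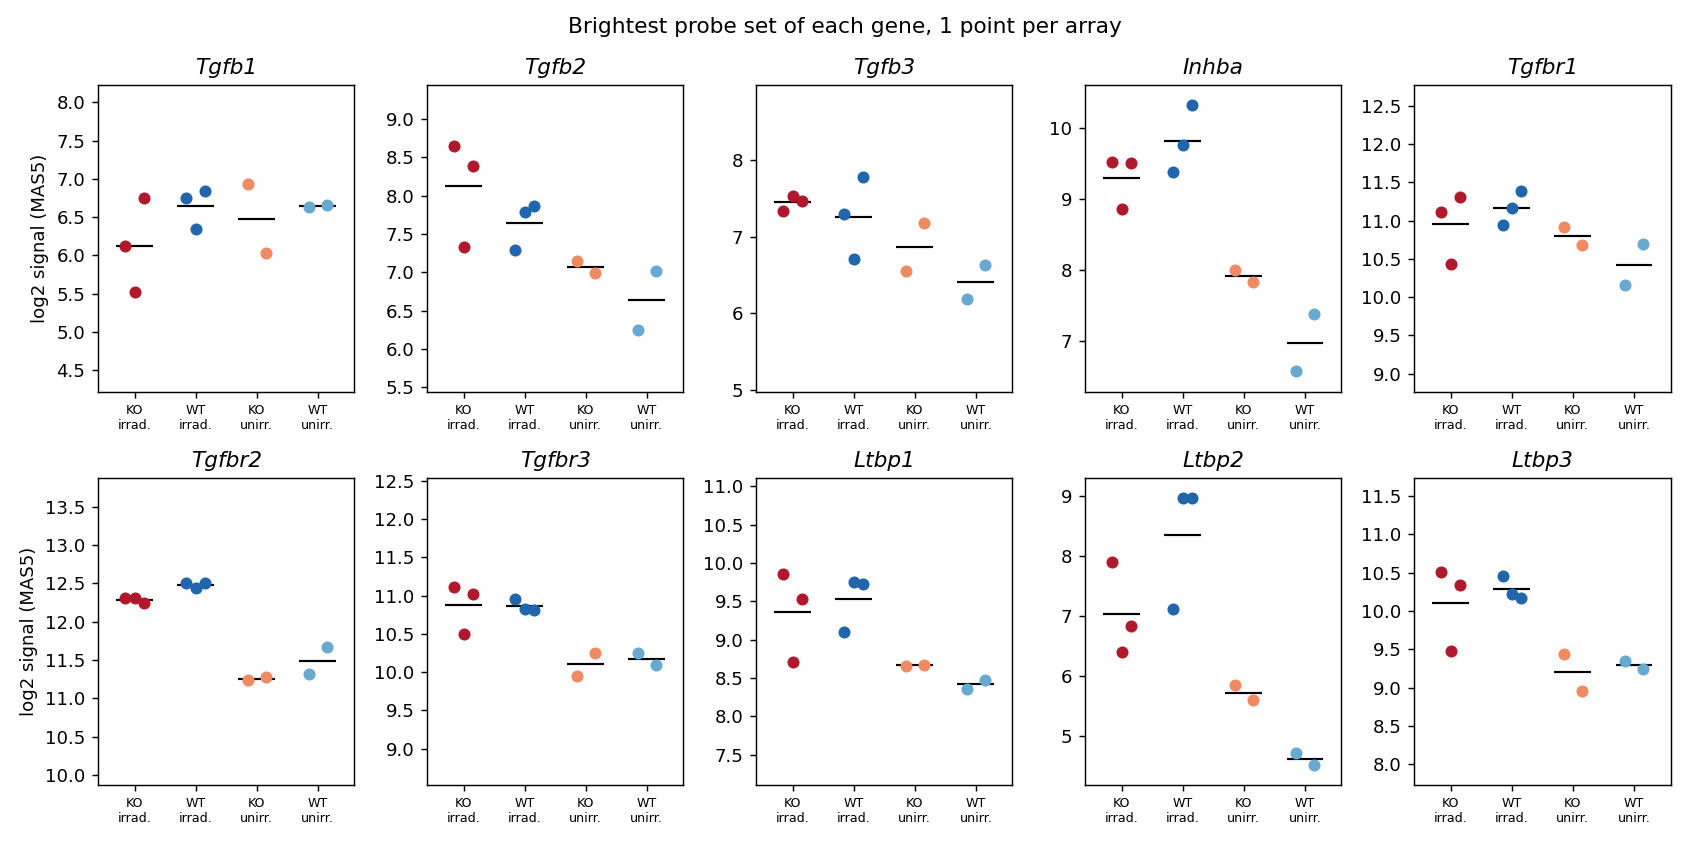
Log2 MAS5 signal of the brightest probe set of each gene (vertical axis, its own range in each panel) on each array, by group, with irradiated knockout, irradiated wild type, unirradiated knockout and unirradiated wild type in this order. Points are arrays and bars are group means; the 3 irradiated wild-type arrays of Inhba lie between 9.38 and 10.32, above both unirradiated wild-type arrays at 6.58 and 7.38.

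The promoters of 3 members are shown because Inhba and Ltbp2 had the largest differences and because Ltbp3 rose in each genotype and holds a pair of overlapping motifs at its start. Sequences are from RefSeq on GRCm38.p6, from 250 bases before to 50 bases after the annotated start, on the strand of the gene; 8 of the 10 members matched the table, with 10 promoters. Capitals mark matches on either strand. The motifs searched were the GC box, with the letters GGGCGG, then the TATA box motif, which was spelled TATAAA. The AP-1 motif was searched with the letters TGANTCA, the SMAD element with CAGACA, and the cyclic AMP response element with TGACGTCA. The Inhba promoter lies at chr13:16011601-16011900 on the plus strand, that of Ltbp2 at chr12:84876442-84876741 on the minus strand and that of Ltbp3 at chr19:5740650-5740949 on the plus strand. The Inhba window lies inside the gene's own coordinates (16004256 to 16031609). The region at the upstream end of the gene was not searched.
Inhba: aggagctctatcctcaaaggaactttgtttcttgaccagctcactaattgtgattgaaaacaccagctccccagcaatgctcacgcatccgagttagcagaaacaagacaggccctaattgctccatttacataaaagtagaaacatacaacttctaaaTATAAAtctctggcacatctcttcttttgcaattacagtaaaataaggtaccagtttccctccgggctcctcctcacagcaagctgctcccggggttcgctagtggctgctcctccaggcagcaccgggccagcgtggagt
Ltbp2: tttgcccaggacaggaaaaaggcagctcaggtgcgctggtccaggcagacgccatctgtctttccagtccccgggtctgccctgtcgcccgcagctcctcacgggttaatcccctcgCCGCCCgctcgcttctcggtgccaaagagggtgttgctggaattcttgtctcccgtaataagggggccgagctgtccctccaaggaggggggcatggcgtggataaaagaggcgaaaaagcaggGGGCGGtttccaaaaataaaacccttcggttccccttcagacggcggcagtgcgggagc
Ltbp3: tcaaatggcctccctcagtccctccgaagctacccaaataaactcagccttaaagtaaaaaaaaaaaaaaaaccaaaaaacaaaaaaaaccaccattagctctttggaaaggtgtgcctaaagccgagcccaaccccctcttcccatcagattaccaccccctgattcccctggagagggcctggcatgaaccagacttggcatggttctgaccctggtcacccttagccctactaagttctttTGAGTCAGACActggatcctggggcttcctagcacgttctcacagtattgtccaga

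The Inhba promoter shown held 1 match, to the TATA box motif at positions -91 to -86 from the start, and 47.7% of its bases were G or C. That of Ltbp2 held 2 GC boxes and was 61.0% G or C, against a median of 52.7% over all promoters of the table. In Ltbp3 an AP-1 match (TGAGTCA) and a SMAD element shared bases across the start, and 48.0% of the bases were G or C. Among 32851 RefSeq promoters of the same length, 35.7% held the GC box, 21.0% the SMAD element, 13.6% the TATA box, 7.81% the AP-1 motif and 1.79% the cyclic AMP response element. A match describes the letters and does not show a bound factor.

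Among the ligands, Inhba had the largest differences. Inhba (chromosome 13, 16004256 to 16031609 on GRCm38.p6) encodes the beta A subunit, and a dimer of this subunit is activin A. Its signals in knockout were 9.53, 8.86 and 9.51 on irradiated arrays, against 8.0 and 7.84 on unirradiated arrays. In wild type they were 9.38, 9.77 and 10.32 on irradiated arrays, against 6.58 and 7.38 on unirradiated arrays. Irradiated and unirradiated arrays did not overlap in either genotype, and the unirradiated wild-type arrays were the lowest of all. The log2 difference was 1.37 ± 0.33 in knockout (SE, adjusted p = 0.0168) and 2.84 ± 0.33 in wild type (SE, adjusted p = 0.000678). In knockout the call was lost without irradiated replicate 1 or 3 or either unirradiated array, and without irradiated replicate 1, which leaves male-pattern arrays on both sides, the difference was 1.26 (adjusted p = 0.0566). In wild type it was 2.49 with the sex pattern as a covariate (adjusted p = 0.12). A further probe set of Inhba was below the array median on every array and differed by -0.15 on average over genotypes.

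Tgfb2 (chromosome 1, 186622787 to 186709697) encodes a ligand that also acts in development of heart and epithelia. In knockout its brightest probe set gave 8.64, 7.33 and 8.39 on irradiated arrays, against 7.15 and 6.99 on unirradiated arrays. In wild type it gave 7.29, 7.79 and 7.86 on irradiated arrays, against 6.24 and 7.02 on unirradiated arrays. The groups did not overlap in either genotype, yet neither comparison passed the threshold. The log2 difference was 1.05 ± 0.41 in knockout (adjusted p = 0.0906) and 1.01 ± 0.41 in wild type (adjusted p = 0.1). Averaged over genotypes it rose by 1.03 ± 0.29 (adjusted p = 0.0187). Without unirradiated knockout replicate 2, or without unirradiated wild-type replicate 1, the averaged difference no longer passed, nor did it with the sex covariate, at 0.51 (adjusted p = 0.536). Of its 4 probe sets, 3 were bright enough to test, and their averaged differences were 1.03, 0.79 and 0.55.

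Tgfb3 (chromosome 12, 86056743 to 86079041) encodes the third TGF-beta isoform and has 1 probe set. In knockout the signals were 7.34, 7.53 and 7.47 on irradiated arrays, against 6.55 and 7.17 on unirradiated arrays. In wild type they were 7.30, 6.71 and 7.77 on irradiated arrays, against 6.19 and 6.63 on unirradiated arrays. Irradiated arrays lay above unirradiated ones in each genotype, with irradiated wild-type replicate 2 close to an unirradiated array. Its log2 difference was 0.59 ± 0.37 in knockout (adjusted p = 0.273), 0.85 ± 0.37 in wild type (adjusted p = 0.12) and 0.72 ± 0.26 averaged over genotypes (adjusted p = 0.0514). None of these passed the threshold.

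Tgfb1 (chromosome 7, 25687002 to 25705077) encodes the most studied TGF-beta ligand in radiation fibrosis. Its 2 probe sets were above the array median on 0 and on 1 of the 10 arrays, so Tgfb1 was not tested, and they disagreed. The brighter one gave 6.12, 5.52 and 6.75 on irradiated and 6.93 and 6.03 on unirradiated knockout arrays, and 6.75, 6.35 and 6.84 on irradiated and 6.63 and 6.66 on unirradiated wild-type arrays. The other gave 6.99, 6.4 and 6.92 on irradiated and 5.53 and 5.97 on unirradiated knockout arrays, and 6.67, 6.95 and 6.99 on irradiated and 4.94 and 6.00 on unirradiated wild-type arrays. Groups overlapped at the first probe set and not at the second. The averaged log2 difference was -0.18 at the first and 1.21 at the second. In a fit of all genes without the filter, the first gave -0.18 ± 0.32 (SE, adjusted p = 0.747).

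Among the receptors, Tgfbr2 had the smallest standard error. Tgfbr2 (chromosome 9, 116087695 to 116175363) encodes the type 2 receptor, which binds the free ligand. In knockout the signals were 12.30, 12.31 and 12.24 on irradiated arrays, against 11.23 and 11.27 on unirradiated arrays. In wild type they were 12.51, 12.43 and 12.50 on irradiated arrays, against 11.31 and 11.66 on unirradiated arrays. Irradiated and unirradiated arrays lay well apart, and the irradiated arrays of a group were within 0.08 of each other. It rose by 1.03 ± 0.13 in knockout (adjusted p = 0.000763) and 0.99 ± 0.13 in wild type (adjusted p = 0.001). The averaged difference of 1.01 ± 0.09 (adjusted p = 5.06e-05) passed the threshold in each of 18 alternative analyses, with an adjusted p of at most 0.00964. In wild type the sex pattern as a covariate ended the call at a difference of 0.96 (adjusted p = 0.125), and in knockout it did not (1.02, adjusted p = 0.00411). When a gene's probe sets were averaged, the calls in the single genotypes were lost, while the averaged one held.

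Tgfbr1 (chromosome 4, 47353222 to 47414926) encodes the type 1 receptor, the kinase that phosphorylates SMAD2 and SMAD3. In knockout the signals were 11.11, 10.43 and 11.30 on irradiated arrays, against 10.91 and 10.68 on unirradiated arrays. In wild type they were 10.94, 11.16 and 11.38 on irradiated arrays, against 10.15 and 10.69 on unirradiated arrays. The knockout groups overlapped, since irradiated replicate 2 was the lowest knockout array, and the wild-type groups did not. The log2 difference was 0.15 ± 0.27 in knockout (adjusted p = 0.711; 95% confidence interval -0.44 to 0.74) and 0.74 ± 0.27 in wild type (adjusted p = 0.0703; 0.15 to 1.33). Neither passed the threshold.

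Tgfbr3 (chromosome 5, 107106567 to 107289629) encodes betaglycan, a co-receptor that presents ligand to the type 2 receptor. In knockout the brighter probe set gave 11.11, 10.50 and 11.02 on irradiated arrays, against 9.95 and 10.25 on unirradiated arrays. In wild type it gave 10.96, 10.83 and 10.81 on irradiated arrays, against 10.25 and 10.10 on unirradiated arrays. The 6 irradiated arrays all lay above the 4 unirradiated ones. It rose by 0.78 ± 0.19 in knockout (adjusted p = 0.0181) and by 0.69 ± 0.19 in wild type (adjusted p = 0.0275). The knockout call was lost without irradiated replicate 1 or 3 or unirradiated replicate 1, and the wild-type call without any 1 of the 5 wild-type arrays. With the sex covariate Tgfbr3 differed by 0.66 in knockout (adjusted p = 0.0611) and 0.34 in wild type (adjusted p = 0.723).

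Among the latency proteins, Ltbp2 had the largest averaged difference of any member's brightest probe set. Ltbp2 (chromosome 12, 84783212 to 84876558) encodes an elastic fibre protein that, unlike its relatives, does not bind the latent TGF-beta complex covalently. In knockout the signals of its single probe set were 7.89, 6.39 and 6.82 on irradiated arrays, against 5.84 and 5.59 on unirradiated arrays. In wild type they were 7.11, 8.96 and 8.97 on irradiated arrays, against 4.70 and 4.50 on unirradiated arrays. All unirradiated arrays were below the array median, where MAS5 signals scatter widely, so the size of the difference is uncertain. Groups did not overlap in either genotype, and irradiated wild-type replicate 1 lay within the range of irradiated knockout. Its log2 difference was 1.32 ± 0.62 in knockout (adjusted p = 0.153; 95% confidence interval -0.08 to 2.72) and 3.74 ± 0.62 in wild type (adjusted p = 0.0033). With the sex pattern as a covariate the wild-type difference was 2.46 (adjusted p = 0.353).

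Ltbp1 (chromosome 17, 75005480 to 75392512) encodes the founding latent TGF-beta binding protein. In knockout its brightest probe set gave 9.85, 8.71 and 9.53 on irradiated arrays, against 8.65 and 8.67 on unirradiated arrays. In wild type it gave 9.10, 9.75 and 9.73 on irradiated arrays, against 8.36 and 8.48 on unirradiated arrays. Irradiated knockout replicate 2 was nearly level with the unirradiated knockout arrays, and all other irradiated arrays stood clear of them. Ltbp1 differed by 0.70 ± 0.32 in knockout (adjusted p = 0.135) and 1.11 ± 0.32 in wild type (adjusted p = 0.0314). In knockout it passed without irradiated replicate 2, at 1.03, and in wild type the call was lost without irradiated replicate 2 or 3 or either unirradiated array. Averaged over genotypes it rose by 0.91 ± 0.22 (adjusted p = 0.0105). With the sex covariate Ltbp1 differed by 0.46 in knockout (adjusted p = 0.35), 0.38 in wild type (adjusted p = 0.801) and 0.42 on average (adjusted p = 0.477).

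Ltbp3 (chromosome 19, 5740900 to 5758536) encodes a binding protein needed for skeletal growth in mice. In knockout its brightest probe set gave 10.51, 9.48 and 10.34 on irradiated arrays, against 9.44 and 8.96 on unirradiated arrays. In wild type it gave 10.45, 10.23 and 10.17 on irradiated arrays, against 9.34 and 9.25 on unirradiated arrays. The groups did not overlap, though irradiated knockout replicate 2 exceeded an unirradiated knockout array by little. It rose by 0.91 ± 0.28 in knockout (adjusted p = 0.0443) and by 0.99 ± 0.28 in wild type (adjusted p = 0.0321). The knockout call was lost in 12 of 19 alternatives and the wild-type call in 7 of 19, which include single arrays left out. With the sex covariate Ltbp3 differed by 0.71 in knockout (adjusted p = 0.131), 0.39 in wild type (adjusted p = 0.778) and 0.55 on average (adjusted p = 0.314). The next probe set gave 9.40, 8.46 and 9.06 on irradiated and 7.64 and 7.66 on unirradiated knockout arrays, and 9.15, 9.04 and 9.28 on irradiated and 7.46 and 7.63 on unirradiated wild-type arrays. In a fit of every probe set it rose by 1.32 ± 0.25 in knockout (adjusted p = 0.00626) and by 1.61 ± 0.25 in wild type (adjusted p = 0.00249).

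**Figure D2:**
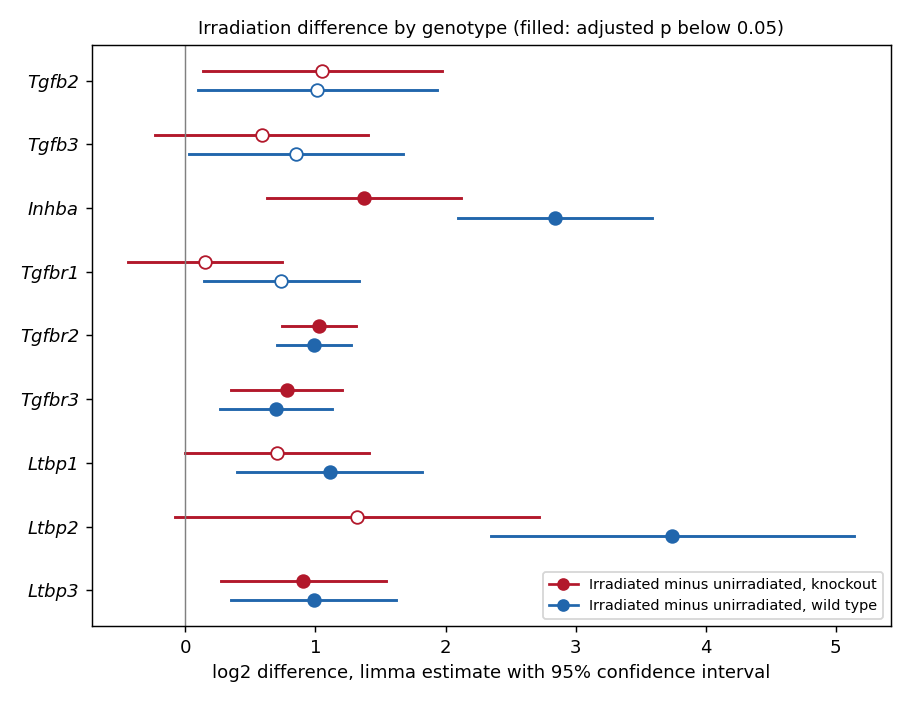
Log2 difference between irradiated and unirradiated arrays (horizontal axis, limma estimate with 95% confidence interval) of the 9 members tested, in knockout and in wild type. Filled points passed the threshold; Ltbp2 at 3.74 and Inhba at 2.84 in wild type lie farthest to the right.

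Probe sets of a gene mostly gave differences of the same sign. Of the 25 member probe sets, 14 exceeded the array median on 2 or more arrays, and these had positive averaged differences, between 0.45 and 2.66. The 3 highest values, at 2.66 (Tgfbr2), 2.53 (Ltbp2) and 2.23 (Tgfbr3), came from probe sets that exceeded the median on irradiated arrays only, so these 3 entered the test through the arrays on which they were high. Of the 11 dimmer ones, 9 were positive, with differences between -0.18 and 2.10. In the fit of every probe set, 5 of the 14 passed the threshold upward in knockout, against 11.4% of the 22144 probe sets tested, and 9 of 14 in wild type, against 13.3%; the 9 include the 3 probe sets just named. That of Tgfbr3, which exceeded the median on 2 irradiated wild-type arrays alone, gave 6.91, 6.88 and 6.85 on irradiated and 6.48 and 5.80 on unirradiated knockout arrays. Its wild-type signals were 7.39, 7.55 and 7.05 on irradiated arrays, against 1.93 and 5.27 on unirradiated arrays, which were far apart.

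**Figure D3:**
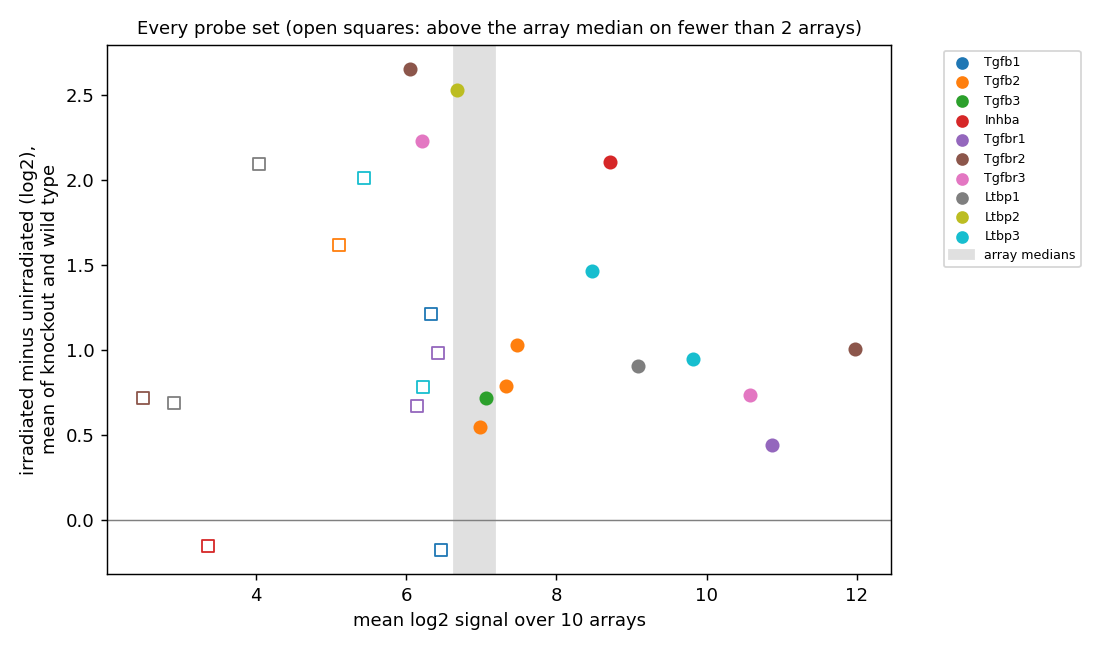
Averaged log2 difference between irradiated and unirradiated arrays (vertical axis) of each of the 25 member probe sets against its mean log2 signal over the 10 arrays (horizontal axis), coloured by gene. Filled circles exceeded the array median on 2 or more arrays, open squares did not, and the grey band spans the array medians from 6.64 to 7.18; the 2 probe sets below 0 are open squares of Tgfb1 and Inhba.

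Knockout and wild type were compared directly after irradiation, without irradiation and in the size of their irradiation difference. After irradiation 0 of 9 members passed the threshold in limma, where 0.0% of all genes passed, and 1 member (Ltbp2) had an unadjusted p below 0.05, as had 3.98% of all genes. Without irradiation 0 of 9 passed, against 1.23% of all genes, and 1 member (Inhba) had an unadjusted p below 0.05, as had 16.6% of all genes. The interaction called 0 of 9 members, against 0.207% of all genes, and 2 members (Inhba and Ltbp2) had an unadjusted p below 0.05, as had 10.4% of all genes. Every alternative analysis run gave the same counts of 0.

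Inhba averaged 9.30 ± 0.38 in irradiated knockout and 9.82 ± 0.47 in irradiated wild type (SD, n = 3 each), and the groups overlapped. Without irradiation it averaged 7.92 ± 0.11 in knockout and 6.98 ± 0.57 in wild type (SD, n = 2 each), and the knockout arrays lay above the wild-type arrays by limma's estimate of 0.94 ± 0.37 (unadjusted p = 0.0282, adjusted p = 0.243). The irradiation difference of Inhba was smaller in knockout than in wild type by 1.47 on the log2 scale (interaction -1.47 ± 0.47, unadjusted p = 0.0114, adjusted p = 0.324; 95% confidence interval -2.52 to -0.41). This did not pass the threshold over all genes. With the sex pattern as a covariate the interaction of Inhba was -1.23. Its knockout minus wild type difference after irradiation was then -0.29, against -0.53 without the covariate.

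Ltbp2 averaged 7.04 ± 0.77 in irradiated knockout and 8.35 ± 1.07 in irradiated wild type (SD, n = 3 each). Without irradiation it averaged 5.72 ± 0.18 in knockout and 4.60 ± 0.14 in wild type (SD, n = 2 each). Knockout arrays were thus lower after irradiation, with overlap, and higher without it, without overlap. Ltbp2 exceeded the array median on 1 of 3 irradiated knockout arrays and 0 of 4 unirradiated arrays, so the sizes of these differences are uncertain. The difference after irradiation was -1.31 ± 0.56 (unadjusted p = 0.0414, adjusted p = 1.0), and the interaction was -2.42 ± 0.88 (unadjusted p = 0.0211, adjusted p = 0.379). With the sex pattern as a covariate the difference after irradiation was -0.46, since the highest irradiated knockout array, at 7.89, was the one with a female pattern. The interaction of Ltbp2 was then -1.57. The interactions of the other 7 members tested lay between -0.59 (Tgfbr1) and 0.08 (Tgfbr3).

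Other genes of the pathway were counted over a list of 48, of which 44 were measured and 41 tested. After irradiation 9 rose and 2 fell in knockout, 12 rose and 3 fell in wild type, and 17 rose and 5 fell with the average over genotypes. Of all genes tested, 14.0% rose and 9.5% fell in knockout, and 15.8% rose and 8.34% fell in wild type. With the average, 23.1% rose and 16.0% fell, and the falls on the list did not exceed that share. Col1a1, which encodes a chain of type 1 collagen, rose by 2.06 ± 0.33 in knockout (adjusted p = 0.00276) and by 1.37 ± 0.33 in wild type (adjusted p = 0.0163). Nrros, which encodes a protein that tethers latent TGF-beta on myeloid cells, rose by 2.78 ± 0.46 in knockout (adjusted p = 0.00316) and by 2.48 ± 0.46 in wild type (adjusted p = 0.00535). The matrix protein gene Tgfbi rose by 2.02 ± 0.34 in knockout (adjusted p = 0.00329) and by 1.55 ± 0.34 in wild type (adjusted p = 0.0107). Fst, which encodes the activin-binding protein follistatin, rose by 2.08 ± 0.37 in knockout (adjusted p = 0.00415) and by 2.19 ± 0.37 in wild type (adjusted p = 0.00341).

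Itgb8, a subunit of an integrin that activates latent TGF-beta, rose by 1.80 ± 0.52 in knockout (adjusted p = 0.0342) and by 3.05 ± 0.52 in wild type (adjusted p = 0.00381). Itgb8 and Fst exceeded the array median on 2 of 4 unirradiated arrays and Nrros on 1 of 4, so the sizes of their rises are uncertain. The co-receptor gene Eng rose by 1.04 in knockout (adjusted p = 0.0099) and by 1.28 in wild type (adjusted p = 0.00395). Postn, which encodes the matrix protein periostin, rose by 0.70 in knockout (adjusted p = 0.018) and by 0.96 in wild type (adjusted p = 0.00473). Genes that fell included the type 1 activin receptor gene Acvr1b, by 1.02 in knockout and 0.79 in wild type. Smad7, which encodes an inhibitory SMAD, fell by 0.76 in knockout. Itgb6, a subunit of an epithelial integrin that activates TGF-beta, and Smad3 fell in wild type, by 1.05 for Itgb6 and 0.69 for Smad3. With the average over genotypes Smad4 fell by 0.65, Smad3 by 0.56, Smad2 by 0.43, Acvr1b by 0.91 and Itgb6 by 0.47. In knockout Itgb6 differed by 0.11 (adjusted p = 0.756), so its averaged fall came from wild type alone. Its mean was 9.85 in unirradiated wild type, against 8.49 in unirradiated knockout, 8.60 in irradiated knockout and 8.80 in irradiated wild type. Smad7 differed by 0.12 in wild type (adjusted p = 0.694), with means of 9.95 in unirradiated knockout and 9.11 in unirradiated wild type.

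By role, the averaged effect passed upward for 6 of 8 latency and activation genes tested, 5 of 9 target genes, 2 of 3 antagonists, 2 of 7 receptors, 1 of 2 ligands and 1 of 12 intracellular genes. It passed downward for 3 of the 12 intracellular genes, 1 latency and activation gene and 1 receptor. Of all genes tested, 23.1% passed upward and 16.0% downward, and the roles hold too few genes to be compared with each other. The single ligand was Inhbb, which encodes the other activin beta subunit and rose by 3.81 ± 0.66 (adjusted p = 0.00173), and the single intracellular gene that rose was the SMAD co-repressor gene Tgif1, by 0.50 ± 0.17 (adjusted p = 0.0382); both were named after their values were seen. Inhbb exceeded the array median on 6 of 6 irradiated arrays and 0 of 4 unirradiated arrays, so it was tested only through the irradiated arrays and the size of its rise is uncertain. The other ligand gene tested, Inha, exceeded the median on 2 of 6 irradiated and 0 of 4 unirradiated arrays. The ligand count therefore rests on genes tested only through irradiated arrays. Between genotypes 0 of the 41 differed after irradiation, where 0.0% of all genes tested did. Without irradiation 1 did, against 1.23% of all genes tested. That was Itgb6, lower in knockout, by -1.36 ± 0.26 (adjusted p = 0.0412). The same unirradiated wild-type arrays enter its fall after irradiation in wild type.

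**Figure D4:**
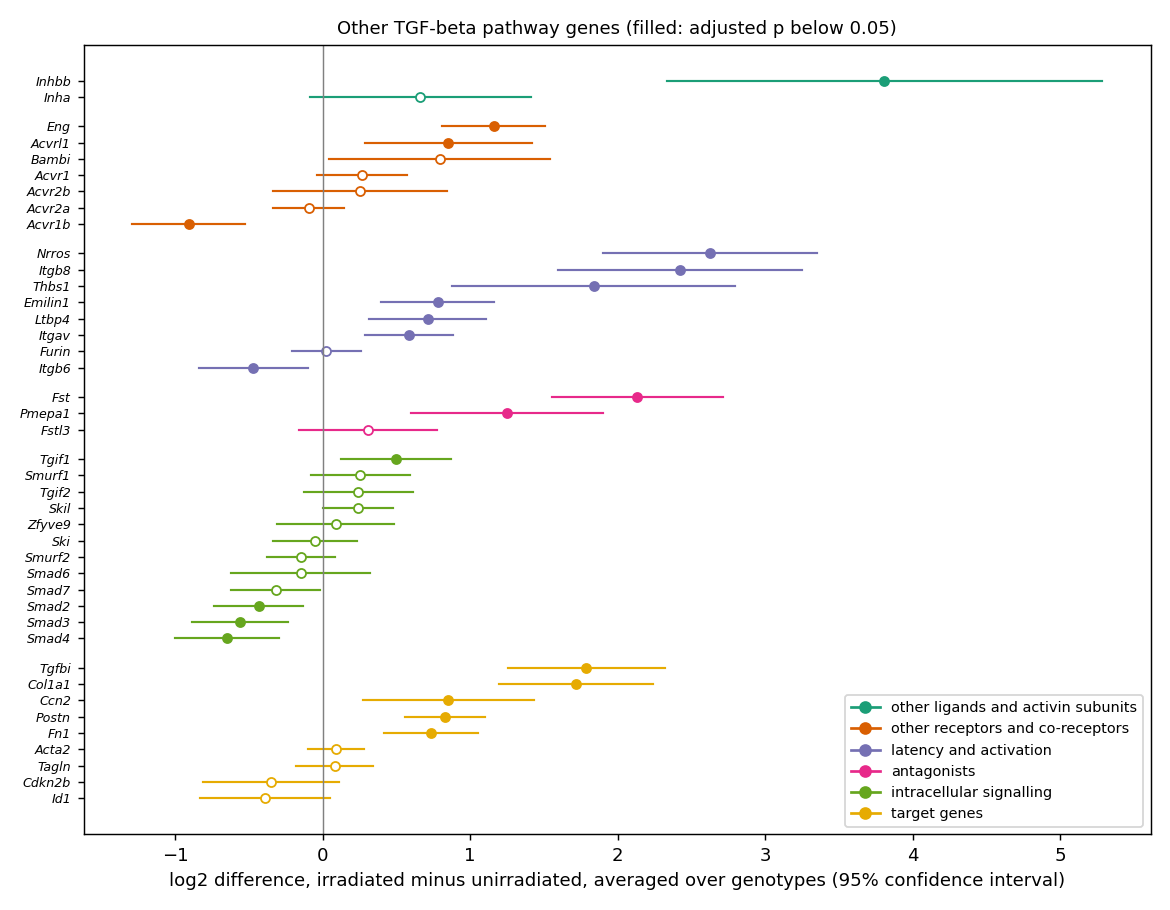
Log2 difference between irradiated and unirradiated arrays averaged over genotypes (horizontal axis, limma estimate with 95% confidence interval) of the 41 other pathway genes tested, coloured by role. Filled points passed the threshold; Inhbb lies farthest to the right at 3.81, with unirradiated signals below the array median that leave its size uncertain, and Acvr1b, which fell by 0.91, lies farthest to the left.

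Markers of several cell types in the tissue moved with irradiation beside the members. The shares of all genes tested were 14.0% risen and 9.5% fallen in knockout, and 15.8% risen and 8.34% fallen in wild type. For the markers too, irradiation and sex pattern cannot be told apart in wild type. In bulk tissue, more cells of a type and more RNA per cell cannot be told apart. Of 10 fibroblast markers, 10 rose in knockout and 10 in wild type. Their summed linear signal was 55138 to 68992 in irradiated knockout and 66198 to 76498 in irradiated wild type, against 13904 to 16383 in unirradiated knockout and 16459 to 17126 in unirradiated wild type. Of 9 endothelial markers tested, 6 rose in knockout and 7 in wild type. Their sum was 3815 to 5142 in irradiated knockout and 4804 to 5438 in irradiated wild type, against 1992 to 2096 in unirradiated knockout and 1682 to 1871 in unirradiated wild type, and Tie1 was below the array median on every array. Of 10 macrophage markers 9 rose in each genotype, with sums of 22565 to 23950 in irradiated knockout and 28969 to 33948 in irradiated wild type, against 3504 to 5577 in unirradiated knockout and 7435 to 9080 in unirradiated wild type. Of 10 absorptive colonocyte markers 8 fell in each genotype, and their sum was 33192 to 78867 in irradiated knockout and 29988 to 35873 in irradiated wild type, against 114746 to 149291 in unirradiated knockout and 117769 to 139481 in unirradiated wild type. Smooth muscle markers did not pass in either direction (0 of 8 in each).

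Squamous epithelial, striated muscle and adipocyte markers, which are not those of colonic mucosa, were also counted. Of 9 squamous markers 9 rose in knockout and 6 in wild type, with summed signals of 29070 to 93101 in irradiated knockout and 34549 to 76386 in irradiated wild type, against 687 to 782 in unirradiated knockout and 408 to 765 in unirradiated wild type. Of 10 striated muscle markers 2 rose in knockout, where 14.0% of all genes tested rose, and 6 in wild type, where 15.8% did. The arrays differed widely, with sums of 30009 to 76107 in irradiated knockout and of 55145, 20669 and 1045 in irradiated wild type. Of 8 adipocyte markers 4 rose in knockout and 5 in wild type, where Pparg fell by 1.76, with sums of 20831 to 50337 in irradiated knockout and 36043 to 56757 in irradiated wild type. Without irradiation the striated muscle sum was 6431 to 8147 in knockout and 698 to 922 in wild type, and the adipocyte sum was 7122 to 9132 in knockout and 2463 to 3510 in wild type. Among the 8 adipocyte markers Car3 alone passed there, higher in knockout by 5.31 ± 0.25 (adjusted p = 2.78e-05), where 1.23% of all genes tested passed. The median difference of the 8 was 0.74. The part of these cell types in the members' differences was not tested.

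Irradiated knockout replicate 2 was the lowest irradiated knockout array for 8 of the 10 members, Tgfb3 and Tgfbr2 being the exceptions, and for 40.4% of all genes tested. Its colonocyte marker sum was 78867, against 33192 and 36852 on the other irradiated knockout arrays. Its fibroblast sum was 55138, against 62295 and 68992, and its endothelial sum was 3815, against 5025 and 5142. Its squamous sum was 29070, against 60194 and 93101, and its adipocyte sum was 20831, against 44242 and 50337. Of 2 measures of RNA quality, the 3′ minus 5′ signal of Gapdh was -0.54 to -0.35 on irradiated arrays and -0.32 to 0.02 on unirradiated arrays, without overlap. That of Actb was 0.44 to 0.58 on irradiated arrays, inside the range of 0.35 to 0.66 on unirradiated arrays. The part of RNA quality in the members' differences was not tested.

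The genes most alike to each risen member over the 10 arrays were found by the root mean square difference of log2 signals, after each gene's mean was subtracted. For Inhba they were Cldn5 (0.23), Rtl8c (0.25) and Flrt2 (0.25), against a root mean square spread of 1.14 for Inhba itself. For Ltbp2 they were Nts, Ncmap and Batf, each at 0.44, against a spread of 1.51. For Tgfbr2 they were Slc43a3 (0.15), Tmem119 (0.15) and Col5a1 (0.16), against a spread of 0.51. Those of Tgfbr3 were Adgra2, Nenf and Esyt1, those of Ltbp1 were Rab12, Zfp36l1 and Eid2, those of Ltbp3 were Celf2, Jcad and Scn7a, and those of Tgfb2 were Ssbp2, Abi2 and Rgs2. These are descriptions over the same arrays, which share their irradiation groups.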

How the data were processed

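Total RNA of distal colorectum was measured on 10 Affymetrix arrays, 1 per sample. The authors' signals came from MAS5, per the submitters' processing notes. The deposited values are log2 signals, judged from the values: on the linear scale the mean trimmed by 2% at each end was 500.0 on every array. Of 45101 probe sets, 34945 had 1 gene and 932 several in the platform annotation, and 34741 symbols were updated by gene ID from a RefSeq table of GRCm38.p6, the source of all coordinates and promoters. The annotation can be old.

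Values were used as deposited. A gene was represented by its probe set with the highest mean. Tests used limma 3.58.1 (R 4.3.3) on all 10 arrays, with a mean for each group, 6 residual degrees of freedom, a variance trend and Benjamini-Hochberg adjustment over 12568 genes at 0.05. The fit was tested on simulated data.

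The 10 members, the gene lists and the alternatives were chosen with earlier results of these data known. Pathway genes named were up to 4 per irradiation comparison and 2 per genotype comparison by smallest adjusted p among those past the threshold, and every one that fell; marker genes called against their list were also named. Alternatives were quantile normalization, a pseudocount of 64, no filter, a filter on the mean, averaging a gene's probe sets, fitting every probe set, the replicate number as a block, only the groups compared, the sex transcript pattern as a covariate, and leaving out each array.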

Additional observations from a re-analysis of the deposited data

How the results depend on the processing

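The number of members past the threshold for irradiation was 4 in knockout, and 1 with the mean of probe sets, 2 with only the groups compared and 1 once sex pattern entered as a covariate. In wild type it was 6, and 0 with the sex covariate. Averaged over genotypes it was 7, and 2 with the sex covariate. Leaving out 1 array gave 1 to 6 in knockout, 3 to 8 in wild type and 6 to 8 for the average; where 1 array was left in a group, its spread was taken from the other groups. The genotype differences and the interaction gave 0 in every alternative run. The averaged difference of Inhba passed in each of the 17 alternatives in which Inhba was tested, and that of Tgfbr2 in 18 of 18. With the mean of probe sets, Inhba and Ltbp1 failed the filter and were not tested, so the counts there cover fewer members. The replicate block gave 3 members in knockout, 4 in wild type, 5 for the average and 0 for the others; the numbers did not pair the samples (correlations of same-numbered arrays -0.20 to 0.16, of others -0.25 to 0.24). Some differences that never passed changed sign. For knockout minus wild type after irradiation, Tgfbr3 was -0.0004 with quantile normalization and -0.22 with the mean of probe sets, and with the sex covariate Ltbp1 was 0.33 and Ltbp3 0.22. Without irradiation, Tgfbr3 was 1.24 with the mean of probe sets. For the interaction, Tgfbr2 was -0.019 with quantile normalization, the mean of probe sets gave -0.14 for Tgfbr2, -0.76 for Tgfb2 and -1.45 for Tgfbr3, and the sex covariate gave 0.081 for Ltbp1 and 0.32 for Ltbp3. With 1 array left out, Tgfbr1 in knockout ranged from -0.026 to 0.41. The genotype difference after irradiation ranged from -0.086 to 0.45 for Tgfb3, -0.39 to 0.044 for Tgfbr1, -0.11 to 0.20 for Tgfbr3, -0.40 to 0.17 for Ltbp1 and -0.37 to 0.14 for Ltbp3. Without irradiation it ranged from -0.23 to 0.08 for Tgfbr3 and -0.34 to 0.15 for Ltbp3. The interaction ranged from -0.35 to 0.43 for Tgfb2, -0.58 to 0.047 for Tgfb3, -0.14 to 0.21 for Tgfbr2, -0.069 to 0.27 for Tgfbr3 and -0.32 to 0.24 for Ltbp3. The cause of these changes was not tested. A fit of only the groups compared was not run for the average and the interaction, which use all groups. Dim probe sets limit the sizes given for Tgfb1, Ltbp2 and the dimmer probe sets of other members.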
